A study of Mus musculus with 383 samples.

Results

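A pair of sets of single nuclei from the mouse dorsal motor nucleus of the vagus was compared, 22 nuclei with reads of the enkephalin precursor gene Penk and none of the dynorphin precursor gene Pdyn, here called Penk-only, and 35 with reads of Pdyn, here called Pdyn nuclei. Of 383 nuclei in the table, 295 held at least 500000 reads, all of them with at least 1000 genes, and 294 of these had a read of Chat or Slc5a7, which mark cholinergic neurons. Tbx20, a transcription factor gene of visceral motor neurons, had a read in 265, and both sets were taken from these. The nuclei were chosen by their measured Penk and Pdyn reads. A Penk-only nucleus had at least 5 Penk reads and 0 Pdyn reads, and a Pdyn nucleus had at least 5 Pdyn reads whatever its Penk reads. A further 199 nuclei had no read of either gene and serve below to place values, and 9 nuclei fell between these sets.

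All nuclei came from male Chat-IRES-Cre mice on a C57BL/6 background, in which the Chat gene drives Cre recombinase in cholinergic cells. Each mouse received 100 nL of AAV9-DIO-H2b-mCherry, a virus whose red nuclear protein is made only where Cre is present, at 10 weeks of age. Tissue was taken 16 days later and pooled, and red nuclei were sorted 1 to a well; the series' own design text gives the age as 12 weeks. No animal is named, so the nuclei count as 1 sample, no test between the sets was possible, and genes were named by limits of size. Intervals are exact 95% intervals (Clopper-Pearson) and cover counting error only.

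Neurons of this nucleus are the preganglionic motor neurons of the vagus, which release acetylcholine onto ganglion cells in the wall of the gut and other organs. Many also carry peptides. Proenkephalin is cut into Met- and Leu-enkephalin, which act mainly at the mu and delta opioid receptors (Oprm1 and Oprd1), and prodynorphin into dynorphins, which act mainly at the kappa receptor (Oprk1). All these receptors couple to inhibitory G proteins.

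The precursors share the short coding units below, which are shown because they are what sets both genes apart as opioid genes. They were read from the GENCODE transcripts Penk-201 (reading frame of 807 bases) and Pdyn-201 (747 bases) on GRCm38. Penk lies on the minus strand at chr4:4133531-4138819 and Pdyn on the minus strand at chr2:129686565-129699844. Capitals mark the codons of the enkephalin pentapeptide, and the lower-case bases are the 2 codons on each side. The Penk frame held 6 Met-enkephalin copies and 1 Leu-enkephalin copy, and the Pdyn frame held 3 Leu-enkephalin copies and no Met-enkephalin copy.
Penk, first Met-enkephalin copy: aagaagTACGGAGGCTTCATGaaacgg
Penk, Leu-enkephalin copy: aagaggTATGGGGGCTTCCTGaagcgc
Penk, last Met-enkephalin copy: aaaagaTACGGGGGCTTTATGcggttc
Pdyn, first Leu-enkephalin copy: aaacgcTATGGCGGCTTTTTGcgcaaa
Pdyn, second Leu-enkephalin copy: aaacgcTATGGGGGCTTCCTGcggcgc
Pdyn, last Leu-enkephalin copy: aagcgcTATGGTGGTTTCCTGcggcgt

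Reads of both precursors chose the nuclei and are given as a description. Penk had 6 reads in the lowest, 42 in the median and 947 in the highest Penk-only nucleus. Pdyn had 5, 205 and 1176 reads in the lowest, median and highest Pdyn nucleus. The nuclei nearest the limits had 6 and 8 Penk reads inside and 1 and 3 outside, and 5 and 6 Pdyn reads inside and 3 and 4 outside.

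Penk took no part in choosing the Pdyn nuclei. At least 5 Penk reads were found in 20 of 35 Pdyn nuclei (57.1%, 39.4 to 73.7) and in 22 of the 230 other nuclei that passed (9.57%, 6.09 to 14.1), and those 22 are the Penk-only nuclei. The high Penk levels lay mostly in Pdyn nuclei: of 13 nuclei with at least 200 Penk reads, 11 were Pdyn nuclei. Scaled to a nucleus's total of deposited reads, as reads per 1000000 (RPM), Penk had a median of 26.6 RPM (5.06 to 657) in Penk-only nuclei, against 234 RPM (5.66 to 1061) in the 20 Pdyn nuclei with at least 5 Penk reads. Pdyn itself had a median of 260 RPM in those 20 nuclei and 57.3 RPM in the 15 Pdyn nuclei with fewer than 5 Penk reads. The ranges of Penk overlapped, with the Penk-only median below that of the Pdyn nuclei with Penk.

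A830012C17Rik overlaps Penk on the other strand, and whether the counting used strand is not given in the sources used here. It had a read in 10 of 22 Penk-only nuclei (45.5%, 24.4 to 67.8), in 50.0% of the Pdyn nuclei with Penk, in 33.3% of those without and in 21.6% (16.1 to 28.0) of nuclei with neither peptide. Reads of the pair cannot be told apart without strand.

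Median reads were 1421000 in Penk-only nuclei, 1496160 in Pdyn nuclei and 1480900 in nuclei with neither peptide, and after thinning every nucleus to 500000 reads the median numbers of genes with a read were 10160, 10195 and 10253. The rule required Chat or Slc5a7, so their shares are given as a description. Chat had a read in 100%, 100% and 98.0% of thinned nuclei, and Slc5a7 in 90.9%, 100% and 98.5%. The lowest level of Chat was 0.773 RPM in Penk-only nuclei, 37.8 RPM in Pdyn nuclei and 0 RPM in nuclei with neither. Slc18a3, the vesicular acetylcholine transporter gene, had a read in 100%, 97.1% and 97.5%. Of the 6 cholinergic markers, 1 had a higher and 4 a lower share in Penk-only than in Pdyn nuclei. Isl1 was the 1 past the limits, lower at 22.7% against 62.9%. The somatic motor gene Mnx1 had no read in either peptide set, but the other markers of its list had reads. The 9 somatic motor markers together had a median of 705 RPM (72.5 to 9018) in Penk-only nuclei. The medians were 600 RPM (151 to 6763) in Pdyn nuclei and 764 RPM (0.353 to 6383) in nuclei with neither. By share 4 of the 9 were higher and 3 lower in Penk-only nuclei, with 0 past the limits. The 5 visceral motor markers together had a median of 302 RPM (0.788 to 765) in Penk-only nuclei, 516 RPM (90.3 to 1018) in Pdyn nuclei and 339 RPM (0.535 to 1119) in nuclei with neither. Tbx20, which the rule used, is part of that sum, and without it the other 4 had medians of 120 RPM (0 to 609), 134 RPM (19.5 to 488) and 141 RPM (0 to 458). Of these, Tbx3 had a read in 59.1% of Penk-only and 40.0% of Pdyn nuclei. Their part in the differences below was not tested. No marker of glia, vascular or ependymal cells and no marker of another transmitter passed the limits, although Gad1 of inhibitory neurons, a list whose summed level was 0 to 77.2 RPM in Penk-only and 0 to 88.9 RPM in Pdyn nuclei, had a read in 27.3% of Penk-only and 5.71% of Pdyn nuclei, and Mbp of oligodendrocytes in 63.6% and 91.4%. The 6 oligodendrocyte markers together reached from 0 to 1247 RPM in Penk-only and from 0 to 2098 RPM in Pdyn nuclei, and their part in the results was not tested. Slc32a1, the vesicular transporter gene that defines inhibitory neurons, and Aqp4 of astrocytes had no read in Penk-only nuclei.

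Over all genes, the difference between the sets involved a small share of the genome in both directions. By share of thinned nuclei with a read, 18889 genes were compared, and a gene was named where the shares differed by at least 25 percentage points and the mean RPM by at least 2-fold the same way. In Penk-only nuclei 220 genes (1.16%) were higher and 139 (0.736%) lower. By level, 5532 genes with a read in at least 75% of both sets were compared by median RPM. At 2-fold, 224 (4.05%) were higher and 199 (3.60%) lower in Penk-only nuclei. Which genes passed depended on the random thinning, since another draw gave 204 and 138 genes by share, of which 140 and 98 were among those above.

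**Figure D1:**
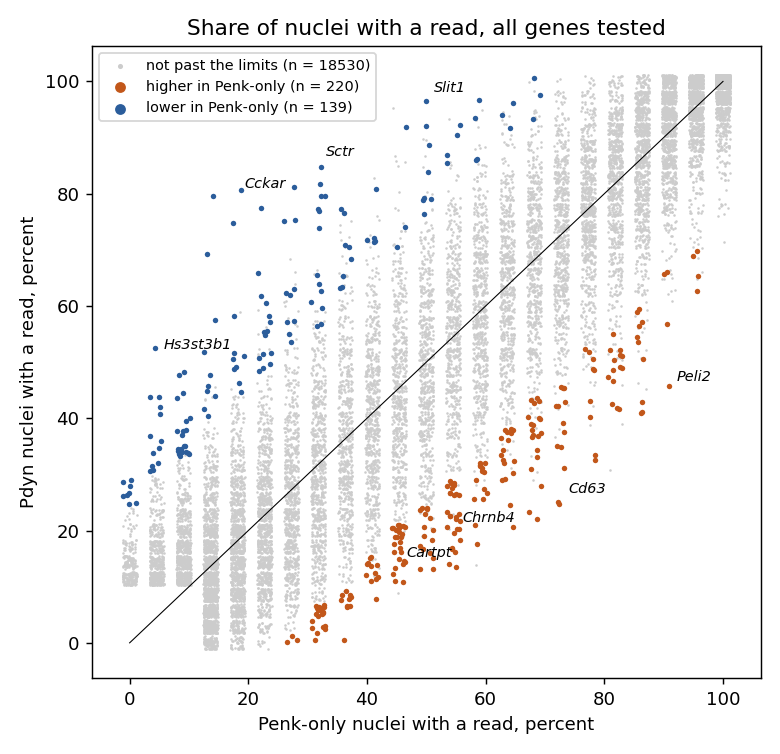
Share of thinned nuclei with a read in the 22 Penk-only (horizontal) and 35 Pdyn nuclei (vertical), in percent, 1 point a gene with a small random shift, with the 220 and 139 genes past the limits in colour. The diagonal line marks equal shares, and 8 of the genes past the limits are named.

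Some genes kept to the limits when 1 processing choice at a time was changed, the stricter limit of 40 points aside. Under all 17 of these settings, 12 genes were higher and 11 lower in Penk-only nuclei by share, and 7 were higher and 26 lower by level. This short list was drawn up after the values were seen. Lower by share in it were the receptor genes Prokr1, Sctr and Npffr1, the cadherin gene Cdh24 and the transcription factor gene Isl1. Higher by share were Chrnb4, Cd63, Snx18, Mus81, Taf1a and Dusp1 among others. By level, the adhesion genes Cntn4, Cntn5 and Cdh12 were higher, and Pcsk2, Ryr2, Ryr3, Grin2a, Rgs6, Trpc7, Tenm3, Nrp1, Foxp1 and Zfp536 were among the 26 lower.

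The nuclei with neither peptide help to place each arm. For the genes lower in Penk-only nuclei by share, the value in nuclei with neither lay closer to Penk-only in 88 of 139, and for the genes higher in Penk-only nuclei in 100 of 220. By level the counts were 110 of 199 lower and 129 of 224 higher genes. Under the same share limits against these 199 nuclei, Penk-only nuclei had 41 genes higher (0.222%) and 20 lower (0.108%), and Pdyn nuclei had 70 higher (0.378%) and 43 lower (0.232%). The 20 Pdyn nuclei with at least 5 Penk reads, a set close in size to Penk-only, had 160 higher (0.826%) and 162 lower (0.837%). The 15 Pdyn nuclei with fewer Penk reads had 141 higher (0.738%) and 163 lower (0.853%). All these comparisons share the 199 nuclei, and the counts were larger for the smaller sets of Pdyn nuclei than for all 35.

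Among the opioid genes themselves, none of the receptors and other precursors passed the limits. Of the 8 genes of this list, 5 other than Penk and Pdyn were detected often enough to be compared, with a median difference of -0.39 points against 0 over all genes. Oprk1, the kappa receptor gene, had a read in 5 of 22 Penk-only nuclei (22.7%, 7.82 to 45.4) and in 0 of 35 Pdyn nuclei, which allows a share of up to 8.57% taken as 3 of 35 nuclei (exact upper limit 10.0%). Its highest level was 48.8 RPM in Penk-only nuclei, and in nuclei with neither peptide it had a read in 8.04%. It had no read in any Pdyn nucleus before thinning either, and the gap of 22.7 points lay inside the limit of 25.

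The levels of the other opioid receptor genes overlapped between the sets. Oprm1 had a read in 68.2% (45.1 to 86.1) of Penk-only and 68.6% (50.7 to 83.1) of Pdyn nuclei, with medians of 12.0 and 31.3 RPM and highest values of 269 and 192 RPM. Oprl1, the nociceptin receptor gene, had a read in 86.4% and 74.3%, with medians of 60.5 and 35.3 RPM. Oprd1 had a read in 2 of 22 and 6 of 35 nuclei, Pomc, the endorphin precursor gene, in 2 and 4, and Pnoc, the nociceptin precursor gene, in 2 and 1.

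Among other peptide precursors, Cartpt was the 1 gene of this list past the limits. Of 26 such genes compared, Cartpt alone was higher in Penk-only nuclei and none was lower, with a median difference of 2.08 points. The shares over all genes were 1.16% higher and 0.736% lower. Cartpt, which encodes the cocaine- and amphetamine-regulated transcript peptide, had a read in 10 of 22 Penk-only nuclei (45.5%, 24.4 to 67.8) and 5 of 35 Pdyn nuclei (14.3%, 4.81 to 30.3), against 41.2% with neither. Its mean was 65.0 RPM in Penk-only and 15.1 RPM in Pdyn nuclei, and 44.6 and 2.33 RPM without the highest nucleus of each set. Crh, the corticotropin-releasing hormone gene, had a read in 1 of 22 Penk-only and 10 of 35 Pdyn nuclei, and Npff, the neuropeptide FF gene, in 6 and 2, both short of the limits. Nts, the neurotensin gene, had a read in 4 and 12, with means of 6.43 and 54.7 RPM. Sst, the somatostatin gene, had a read in 3 and 0, the latter with an exact upper limit of 10.0%. Nts and Sst did not pass either and were picked after their values were seen.

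Most nuclei of both sets carried other peptide genes as well, so Penk-only refers to Penk and Pdyn alone. Gal, the galanin gene, had a read in 90.9% of Penk-only and 97.1% of Pdyn nuclei, and Adcyap1, the PACAP gene, in 81.8% and 100%. These were picked after their values were seen.

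Of the enzymes that cut and finish peptide precursors, Pcsk2 differed most in level and Pcsk5 and Mme in share. Pcsk2 encodes prohormone convertase 2, which cleaves both proenkephalin and prodynorphin at pairs of basic residues such as those coded before the capitals above. After the last Met-enkephalin copy of Penk, the codons give arginine and phenylalanine, which is not such a pair. Pcsk2 had 18.7 RPM in the lowest, 211 in the median and 775 in the highest Penk-only nucleus. Pdyn nuclei had 48.7, 635 and 1479 RPM, and the median with neither peptide was 206 RPM. The Penk-only median was 0.332 of the Pdyn median, 3 of 22 Penk-only nuclei lay above the Pdyn median, and the ranges overlapped. The direction was the same in all 3 blocks of 96 nucleus numbers that held at least 3 nuclei of both sets.

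The other main convertase gene, Pcsk1, had medians of 205 RPM in Penk-only and 119 RPM in Pdyn nuclei, within the limit. Cpe, the carboxypeptidase that trims the cut ends, had medians of 418 and 328 RPM. Pam, which amidates peptides, had 357 and 286 RPM, with a read of both in every nucleus. Of 24 processing genes compared by share, Pcsk5, another convertase gene, was higher in Penk-only nuclei (86.4% against 60.0%), as was Mme (72.7% against 40.0%). Without the highest nucleus of each set, the Mme means of 19.4 and 10.9 RPM were under 2-fold apart. Mme encodes neprilysin, an enzyme that breaks down enkephalins. Of 19 compared by level, Pcsk2 and Qpct were lower, and the median log2 ratio of the list was 0.29 against 0.07 over all genes. Over all genes 1.16% were higher and 0.736% lower by share, and 4.05% higher and 3.60% lower by level.

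Cckar, the gene of the gut-type cholecystokinin receptor, had a read in 4 of 22 Penk-only (18.2%, 5.19 to 40.3) and 28 of 35 Pdyn nuclei (80.0%, 63.1 to 91.6), against 25.6% with neither. Pdyn nuclei with and without Penk had the same share, 80.0% each. The highest nucleus overall was Penk-only, at 671 RPM, and without the highest nucleus of each set the means were 8.09 and 103 RPM. Prokr1, a prokineticin receptor gene, had a read in 18.2% (5.19 to 40.3) of Penk-only and 74.3% (56.7 to 87.5) of Pdyn nuclei, but its share difference was 6.67 points the other way in the second block of nucleus numbers.

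Sctr, the secretin receptor gene, had a read in 7 of 22 Penk-only nuclei (31.8%, 13.9 to 54.9) and 30 of 35 Pdyn nuclei (85.7%, 69.7 to 95.2), against 29.6% with neither. In level it ran to 41.8 RPM in the highest Penk-only nucleus, below the Pdyn median of 77.4 RPM, so that no Penk-only nucleus passed that median. The Pdyn nuclei still reached down to 0 RPM. In the Pdyn set the median was 112 RPM in nuclei with Penk and 11.9 RPM in nuclei without. The share difference of Sctr was -10 points in the second block of nucleus numbers, against -53.9 points over the whole sets.

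Both neuropeptide FF receptor genes were lower in Penk-only nuclei. Npffr1 had a read in 45.5% (24.4 to 67.8) of Penk-only and 91.4% (76.9 to 98.2) of Pdyn nuclei, and Npffr2 in 40.9% (20.7 to 63.6) and 80.0% (63.1 to 91.6). Nuclei with neither peptide had 54.3% and 59.8%. Of 44 peptide and hormone receptor genes compared, these with Cckar were the 3 lower, and Oxtr, the oxytocin receptor gene, was the 1 higher (36.4% against 8.57%). The median difference of the list was -1.23 points, and over all genes 1.16% were higher and 0.736% lower. Sctr and Prokr1 were not in that list. The share difference of Npffr1 was -6.67 points in the second block of nucleus numbers, against -46.0 points over the whole sets.

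**Figure D2:**
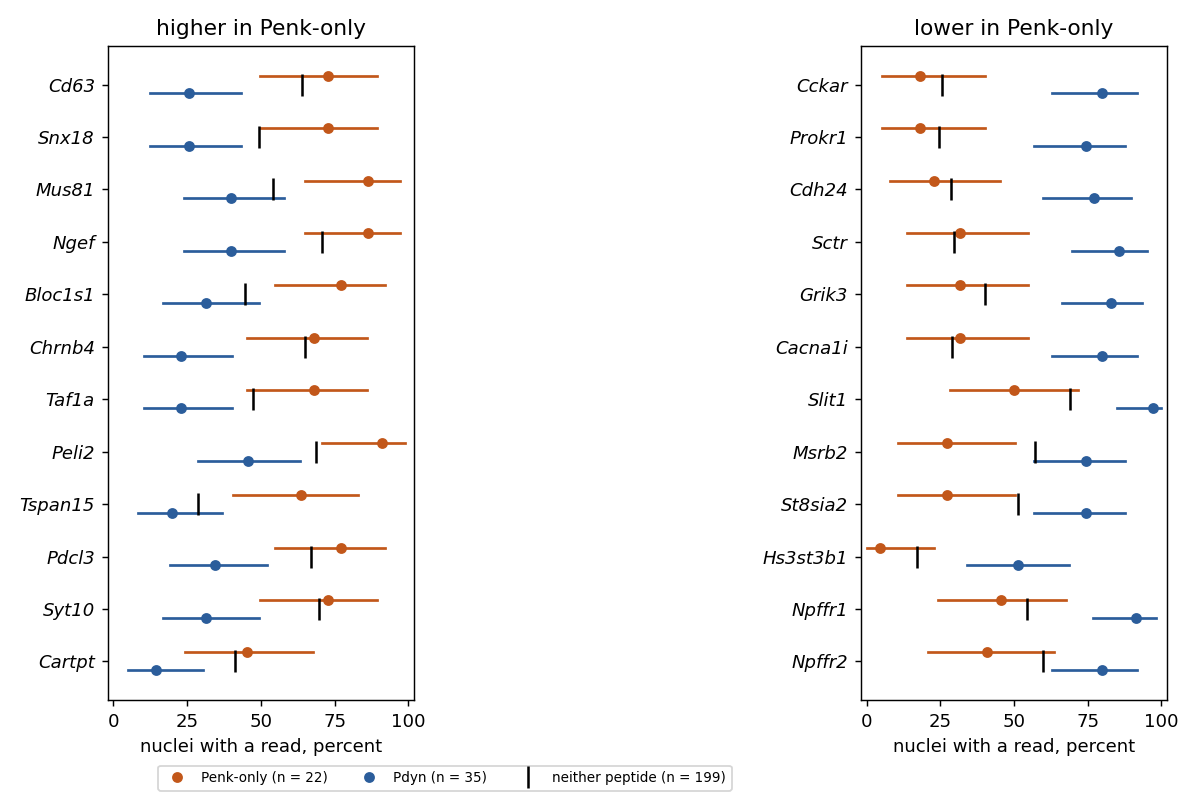
Share of thinned nuclei with a read for 24 named genes, in percent, with exact 95% intervals as bars, Penk-only above Pdyn in each row and nuclei with neither peptide as a black tick. Genes higher in Penk-only nuclei are in the left panel and genes lower in them in the right panel.

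Further genes lower in Penk-only nuclei by share were Grik3, a kainate receptor gene, at 31.8% against 82.9%, and Cacna1i, a T-type calcium channel gene, at 31.8% against 80.0%. Slit1, an axon guidance ligand gene, had a read in 50.0% against 97.1%, and Cdh24, a cadherin gene, in 22.7% against 77.1%. Enzyme genes among the widest were Msrb2, for a methionine sulfoxide reductase, and St8sia2, for a polysialic acid synthase, at 27.3% against 74.3% each, and Hs3st3b1, a heparan sulfate sulfotransferase gene, at 4.55% against 51.4%. Hs3st3b1 had a read in 70.0% of Pdyn nuclei with Penk and 26.7% of those without.

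Among the genes higher in Penk-only nuclei by share, Chrnb4, the nicotinic beta-4 subunit gene of autonomic-type receptors, had a read in 15 of 22 Penk-only nuclei (68.2%, 45.1 to 86.1) and 8 of 35 Pdyn nuclei (22.9%, 10.4 to 40.1), against 64.8% with neither. Its median was 85.2 RPM in Penk-only and 0 RPM in Pdyn nuclei, with highest values of 448 and 384 RPM. The ranges overlapped, but 3 of 35 Pdyn nuclei passed the Penk-only median.

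Chrna3, the alpha subunit gene that pairs with Chrnb4 and lies in the same gene cluster, had a read in 72.7% of Penk-only and 88.6% of Pdyn nuclei, with medians of 147 and 53.3 RPM. Share and level of Chrna3 thus pointed opposite ways. Chrna5 of the same cluster had a read in 45.5% and 51.4%, and Chrna6, an alpha subunit gene elsewhere, in 50.0% and 25.7%. Chrna4, another alpha subunit gene, had a read in 59.1% and 77.1%, with medians of 2.74 and 26.4 RPM. None of these alpha subunit genes passed the limits by share. None was compared by level, since each had a read in under 75% of Penk-only nuclei. The Chrna3 medians were 2.76-fold apart. These genes were picked beside Chrnb4 after their values were seen.

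Cd63, a tetraspanin gene of endosomes and lysosomes, had a read in 16 of 22 Penk-only (72.7%, 49.8 to 89.3) and 9 of 35 Pdyn nuclei (25.7%, 12.5 to 43.3), against 63.8% with neither. Syt10, a calcium sensor gene of the synaptotagmin family, had a read in 72.7% and 31.4%, against 69.8% with neither. Others among the 15 widest were Snx18, a sorting nexin gene (72.7% against 25.7%), Mus81, a DNA repair nuclease gene (86.4% against 40.0%), and Ngef, a guanine nucleotide exchange factor gene (86.4% against 40.0%). Bloc1s1, a gene of lysosome-related organelle biogenesis, had a read in 77.3% against 31.4%, Taf1a, of the RNA polymerase I machinery, in 68.2% against 22.9%, and Peli2, a ubiquitin ligase gene, in 90.9% against 45.7%. Tspan15, Pdcl3, Spry4, Cdc42ep2 and Eef1akmt2 completed those with a known name, besides Tbx3os1.

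Tbx3os1 had a read in 86.4% of Penk-only and 42.9% of Pdyn nuclei. It overlaps Tbx3 on the other strand, so the pair cannot be told apart without strand, and Tbx3, a visceral motor transcription factor gene, had a read in 59.1% and 40.0%. Bloc1s1 differed by 7.92 points when at least 5 reads were required for detection, and it overlaps Rdh5 on its own strand. Mus81 and Eef1akmt2 overlap Efemp2 and Fgfr2 and their reads are uncertain as well.

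**Figure D3:**
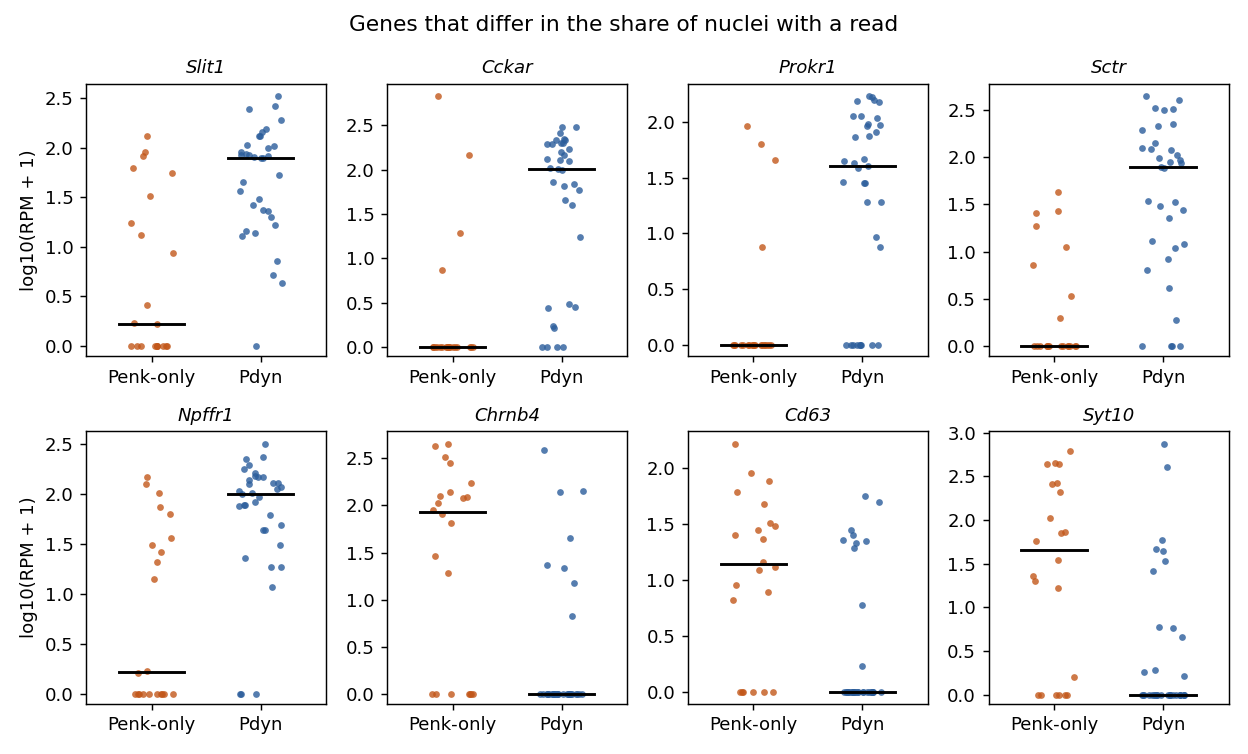
Level in each nucleus as log10(RPM + 1) for 8 genes that differ in share, 22 Penk-only nuclei on the left and 35 Pdyn nuclei on the right of each panel, with a black line at the median. Slit1, Cckar, Prokr1, Sctr and Npffr1 have Penk-only medians below 1 RPM, and Chrnb4, Cd63 and Syt10 have Pdyn medians of 0 RPM.

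Receptors for amines, acetylcholine and ATP had 4 genes higher and 1 lower of 39 compared, with a median difference of 2.21 points. Over all genes 1.16% were higher and 0.736% lower by share, and 4.05% higher and 3.60% lower by level. Besides Chrnb4, the genes higher in Penk-only nuclei were Adra2a, an alpha-2 adrenergic receptor gene (54.5% against 22.9%), Htr2a, a serotonin receptor gene (63.6% against 37.1%), and P2rx2, an ATP-gated channel gene (72.7% against 37.1%). Hrh1, the histamine H1 receptor gene, was lower, at 54.5% (32.2 to 75.6) against 85.7% (69.7 to 95.2). Hrh3, the histamine H3 receptor gene, had a read in 36.4% and 74.3% without reaching the 2-fold limit on its mean. By level, of 4 compared, Chrm3, a muscarinic receptor gene, was higher, with medians of 37.6 and 18.4 RPM.

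Th, which encodes tyrosine hydroxylase, the first enzyme of catecholamine synthesis, had a read in 8 of 22 Penk-only (36.4%, 17.2 to 59.3) and 26 of 35 Pdyn nuclei (74.3%, 56.7 to 87.5). Its means of 67.7 and 92.9 RPM were under 2-fold apart. Gch1, whose enzyme makes the cofactor of tyrosine hydroxylase, went the other way and passed the limits, at 68.2% against 40.0%.

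In the machinery behind opioid receptors, regulators of G protein signalling differed in both directions. Of 30 genes compared by share, Rgs4 and Adcy8, an adenylyl cyclase gene, were higher in Penk-only nuclei, and Rgs10 and Rgs12 lower. The median difference was -3.96 points, and over all genes 1.16% were higher and 0.736% lower. Rgs4 had a read in 54.5% (32.2 to 75.6) against 17.1% (6.56 to 33.6), and Rgs10 in 36.4% (17.2 to 59.3) against 77.1% (59.9 to 89.6). Rgs10 went the other way by 26.7 points in the second block of nucleus numbers. By level, of 20 compared, Rgs20 was higher, with medians of 62.4 and 15.9 RPM, and Rgs9 lower, with 117 and 245 RPM. These counts of 1 each way lay near the shares over all genes, 4.05% higher and 3.60% lower.

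Rgs6, outside that list of levels and among the 10 widest of all genes, had 0.660 RPM in the lowest, 103 in the median and 1644 in the highest Penk-only nucleus, against 0, 775 and 2256 RPM in Pdyn nuclei. Its median with neither peptide was 78.6 RPM. The ranges overlapped, and 4 of 22 Penk-only nuclei passed the Pdyn median.

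Of 32 GABA, glycine and glutamate receptor genes compared by level, 5 were lower, among them Grin2a, Grik1, Grik2 and Grm7, and 1, Gabra2, was higher, with a median log2 ratio of -0.36 against 0.07 over all genes. Over all genes 3.60% were lower and 4.05% higher. Grin2a, an NMDA receptor subunit gene, had 0 RPM in the lowest, 308 in the median and 2147 in the highest Penk-only nucleus, against 30.4, 1604 and 3502 RPM in Pdyn nuclei. The Pdyn median was 5.21 times that of Penk-only, and 4 of 22 Penk-only nuclei passed it.

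Grik2, a kainate receptor gene, had medians of 858 and 2000 RPM, and 1 of 22 Penk-only nuclei passed the Pdyn median. Gabra2, a GABA-A receptor subunit gene, had medians of 165 and 50.1 RPM. By share, of 42 compared, Gabrg1 (68.2% against 40.0%) and Grin2c (31.8% against 5.71%) were higher, and Grik3 and Grm4 (50.0% against 80.0%) lower. The shares over all genes were 1.16% higher and 0.736% lower. Grm4 differed by 13.3 points the other way in the second block.

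Of 50 ion channel genes compared by level, 6 were lower in Penk-only nuclei and 0 higher, beside 3.60% lower and 4.05% higher over all genes, with a median log2 ratio of -0.26. They were Cacnb4, Kcnc1, Kcnq5, Trpc7, Trpm3 and Nalcn. Kcnq5, a gene of M-type potassium channels, had medians of 446 RPM in Penk-only and 1115 RPM in Pdyn nuclei, and Nalcn, the sodium leak channel gene, 314 and 651 RPM. By share, 1 of 102 was higher, Kcng2 (45.5% against 17.1%), and 2 were lower, Cacna1i and Kcnk13, a potassium leak channel gene (63.6% against 97.1%). The shares over all genes were 1.16% higher and 0.736% lower.

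The ryanodine receptor genes, for calcium release from internal stores, stood among the lower genes. Ryr3 had 1.04 RPM in the lowest, 114 in the median and 1967 in the highest Penk-only nucleus, against 51.9, 1100 and 3231 RPM in Pdyn nuclei, and 254 RPM in the median nucleus with neither. The Pdyn median was 9.67 times that of Penk-only, and 1 of 22 Penk-only nuclei passed it. With Penk-only limited to at least 20 Penk reads, the log2 ratio of the medians shrank to -1.88. Ryr2, named beside Ryr3, had medians of 140 and 518 RPM.

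**Figure D4:**
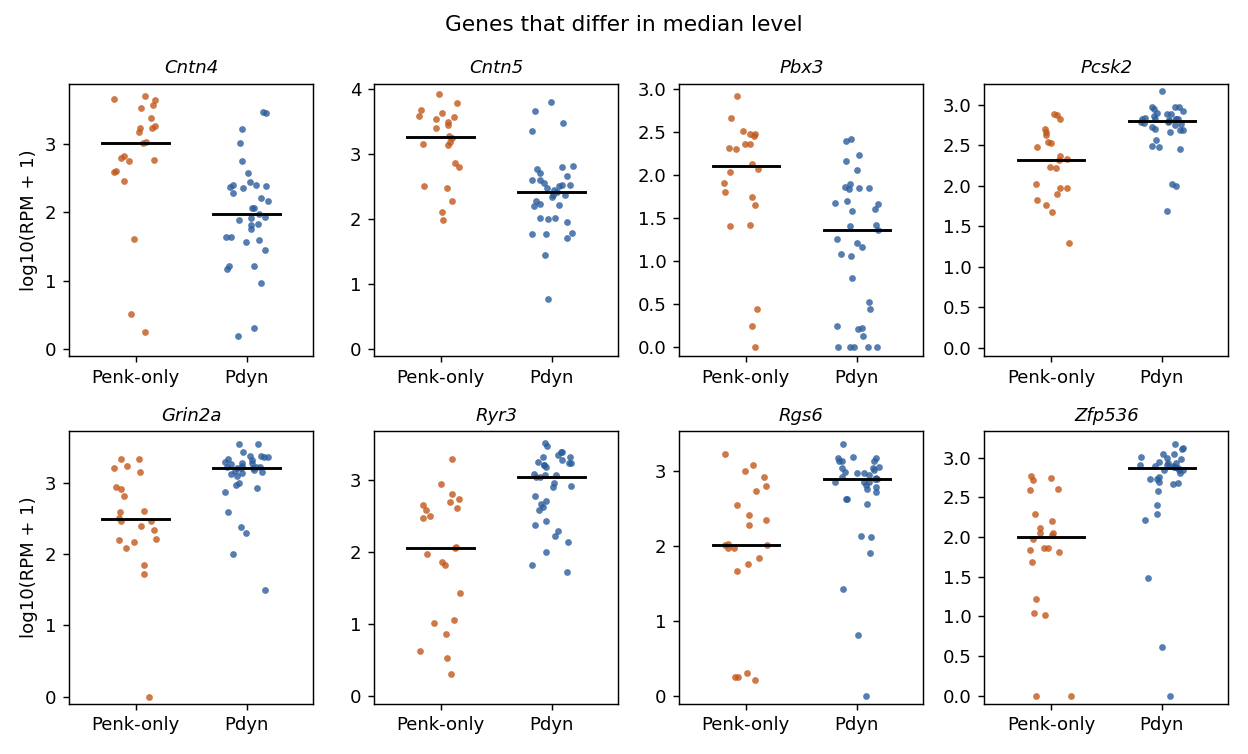
Level in each nucleus as log10(RPM + 1) for 8 genes that differ in median level, 22 Penk-only nuclei on the left and 35 Pdyn nuclei on the right of each panel, with a black line at the median. Cntn4, Cntn5 and Pbx3 have the higher median in Penk-only nuclei and the other 5 genes the lower, and the points of both sets overlap in every panel.

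Cntn4, a contactin gene of cell adhesion and the widest gene higher in Penk-only nuclei by level, had 0.773 RPM in the lowest, 1040 in the median and 5091 in the highest Penk-only nucleus, against 0.558, 92.5 and 2981 RPM in Pdyn nuclei and a median of 1432 RPM with neither. The Penk-only median was 11.2 times that of Pdyn, and 19 of 22 Penk-only nuclei but 3 of 35 Pdyn nuclei lay above the median of the other set. Its paralog Cntn5 had medians of 1839 and 266 RPM, with 1915 RPM with neither.

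Tenm2, a teneurin gene, went the other way, with medians of 1702 RPM in Penk-only and 4240 RPM in Pdyn nuclei, and 0 of 22 Penk-only nuclei passed the Pdyn median. Lsamp, a cell adhesion gene of the IgLON family, had medians of 4458 and 9384 RPM, and its relative Ntm 265 and 811 RPM. Of 64 guidance and adhesion genes compared by level, 7 were higher (Cdh8, Cdh10, Cdh12, Pcdh15, Pcdh17, Cntn4 and Cntn5). The 10 lower were Nrp1, Unc5d, Cdh11, Cdh13, Cntnap4, Tenm2, Tenm3, Lsamp, Ntm and Alcam. The median log2 ratio of the list was -0.17, and over all genes 4.05% were higher and 3.60% lower. By share, of 94 compared, Ntng2 was higher (63.6% against 37.1%) and Slit1 lower, beside 1.16% higher and 0.736% lower over all genes.

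Transcription factor genes passed the share limits in both directions. Isl1, a LIM homeobox gene of motor neurons, had a read in 5 of 22 Penk-only nuclei (22.7%, 7.82 to 45.4) and 22 of 35 Pdyn nuclei (62.9%, 44.9 to 78.5), against 24.1% with neither. Its shares were close in Pdyn nuclei with and without Penk, at 65.0% and 60.0%. Nkx6-2 (18.2% against 51.4%) and Hoxc5 (31.8% against 60.0%) were lower as well. Hoxc5 overlaps other Hoxc genes on the same strand and Nkx6-2 overlaps Inpp5a on the other strand, so the reads of both are uncertain.

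Onecut2 had a read in 86.4% (65.1 to 97.1) of Penk-only and 54.3% (36.6 to 71.2) of Pdyn nuclei, and Onecut1 in 40.9% and 11.4%. Both are cut homeobox genes, and both were higher in Penk-only nuclei. In the second block of nucleus numbers Onecut2 differed by 3.33 points and Onecut1 by 13.3 points the other way. Of 93 factors compared by share, these 2 were the higher and 4 the lower, beside 1.16% higher and 0.736% lower over all genes, with a median difference of -1.30 points.

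By level, without Tbx20, which the rule used, 26 factors were compared. Of these 3 were higher, Pbx3 and Ebf1 among them, and 3 lower, Foxp1, Dach1 and Nfatc2, with a median log2 ratio of -0.25. The shares over all genes were 4.05% higher and 3.60% lower. Pbx3, a Hox cofactor gene, had medians of 126 RPM in Penk-only and 22.1 RPM in Pdyn nuclei, and 122 RPM with neither. Ebf1 had 426 and 177 RPM. Tbx20 itself had medians of 148 and 331 RPM, given as a description. Zfp536, a zinc finger repressor gene, had medians of 99.9 and 730 RPM, and 0 of 22 Penk-only nuclei passed the Pdyn median.

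Other genes among the 10 widest by level had a less settled link to these pathways. Higher in Penk-only nuclei were Sh3rf3, a ubiquitin ligase gene, with medians of 91.6 RPM in Penk-only and 9.92 RPM in Pdyn nuclei, and Phactr2, a phosphatase and actin regulator gene, with 185 and 34.0 RPM. Garem1, an adaptor gene of growth factor signalling, had 137 and 25.8 RPM, Rtl4 64.2 and 9.74 RPM, and Car10, a carbonic anhydrase-related gene, 93.3 and 15.2 RPM. Car10 ranged up to 1853 and 1348 RPM, and its median was higher in 1 of the 3 blocks.

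Lower were Dach1, a transcription factor gene, with medians of 8.98 and 111 RPM, and Nfatc2, a calcium-regulated factor gene, with 7.78 and 46.7 RPM. L3mbtl4, a chromatin reader gene, had 42.0 and 315 RPM, and Fmn1, a formin gene of the actin skeleton, 68.1 and 432 RPM. Cngb3, a cyclic nucleotide-gated channel subunit gene, had 2.14 and 23.2 RPM, Smim10l1 9.97 and 59.8 RPM, and Ccdc90b, which overlaps Ankrd42 on the other strand, 3.77 and 48.4 RPM. The ranges of the sets overlapped for all of these genes.

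Several listed genes had share gaps over 25 points but means under 2-fold apart and so did not pass. Pcdh10, a protocadherin gene, had a read in 45.5% of Penk-only and 94.3% of Pdyn nuclei, Cacna1h, a T-type calcium channel gene, in 45.5% and 85.7%, and Kcnk2, a potassium leak channel gene, in 59.1% and 94.3%. Gpr39, a zinc-sensing receptor gene, had a read in 27.3% and 62.9%, and it overlaps Lypd1 on the other strand.

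The remaining lists are given beside the shares over all genes. Those were 1.16% higher and 0.736% lower by share, and 4.05% higher and 3.60% lower by level. Among 44 neurotrophic factor and cytokine receptor genes, Met, the hepatocyte growth factor receptor gene, was higher by share (72.7% against 42.9%), and of 17 compared by level Bmpr1b was higher and Ret lower. Of 14 nitric oxide, cGMP and calcium-binding genes compared by level, Nos1ap and Pde10a were higher. Of 7 cholinergic genes compared by level, Prima1, whose product anchors acetylcholinesterase, was lower, with medians of 14.9 and 33.4 RPM. Of 15 immediate early genes, Dusp1 was higher (63.6% against 28.6%), while Fos had a read in 27.3% of Penk-only and 11.4% of Pdyn nuclei. Dusp1 overlaps Ergic1 on the other strand, so its reads are uncertain. No gene passed a limit among 17 axon injury genes and the 23 listed interferon response genes. Iigp1, an interferon-inducible GTPase gene outside that list, was lower in Penk-only nuclei, with a read in 31.8% (13.9 to 54.9) against 62.9% (44.9 to 78.5) and means of 42.7 and 111 RPM. It was picked after its values were seen, as 1 of the 11 genes that kept to the limits.

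The comparison was also made within blocks of 96 nucleus numbers. Blocks 1, 2 and 4 held 8, 5 and 8 Penk-only nuclei and 8, 6 and 11 Pdyn nuclei, and block 3 held 1 Penk-only nucleus and was not compared. The share differed the same way in all 3 blocks for 160 of 220 genes higher and 106 of 139 lower in Penk-only nuclei. The median level differed the same way for 128 of 224 higher and 125 of 199 lower genes. These genes were chosen on the same nuclei pooled, so the counts are a description and support nothing. What these numbers stand for was not given in the sources used here.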

How the data were processed

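The authors deposited read counts per gene for 383 nuclei and 29779 genes, whole numbers without normalization, made by Smart-seq2 (22 cDNA cycles) without molecular identifiers, per the labels' protocols. The submitters' processing notes name GRCm38, bcl2fastq, STAR, Picard, edgeR and Seurat 3, without roles. How reads were assigned to genes, with which gene models and whether by strand, is not given in the sources used here. The protocol names sections near the suprachiasmatic nucleus although the tissue is the vagal motor nucleus. That was not resolved.

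Each nucleus was thinned at random to 500000 reads for shares, and all deposited reads gave RPM (reads per 1000000). Amplified reads are not independent molecules. A gene was compared by share where at least 10% of either set had a read. Penk and Pdyn were left out of all counts. The procedure was tested on simulated data for recovery of planted share differences wider than the limit. Genes passing the limits without a planted difference were not counted. Genes named are the 8 opioid genes, the 15 widest by share and 10 widest by level in each direction, and from each list every gene past a limit with up to 4 of its widest. The members, lists and limits were chosen with earlier results of these data known. Of 162 symbols, 161 were placed in GENCODE vM21. Many of these overlap another gene, which is not marked above in every case. Doublets were not called. Python 3.11.15, numpy 2.4.6, pandas 2.3.3, scipy 1.17.1 and matplotlib 3.10.9 were used. Some genes that the rule names are not reported here.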

Additional observations from a re-analysis of the deposited data

Results flagged for a closer look

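Penk reads appeared in nuclei that the rule left out. Among the 29 nuclei without a Tbx20 read that passed every other filter, 7 had at least 5 Penk reads (24.1%, 10.3 to 43.5). None of the 29 had at least 5 Pdyn reads, which allows a share of up to 10.3% taken as 3 of 29 nuclei (exact upper limit 11.9%). With these 7 taken into the Penk-only set, 174 genes were higher and 116 lower by share.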

How the results depend on the processing

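Each setting changed 1 choice, and counts are given as higher and lower in Penk-only nuclei. By share (220 and 139), a limit of 40 points gave 15 and 24 genes. Pdyn nuclei with at least 5 Penk reads gave 448 and 279, and those with fewer gave 449 and 272. Leaving out block 1 gave 341 lower, block 2 gave 398 and 219, and block 4 gave 491 and 344. Groups formed on thinned reads gave 333 higher. By level (224 and 199), no thinning gave 351 and 337, detection at 5 reads 60 and 85, Pdyn nuclei with at least 5 Penk reads 370 higher, and leaving out block 4 gave 401 higher. Smaller sets gave more genes in these settings. Scaling without the 100 most abundant genes gave 211 and 146 by share and 197 and 222 by level. Counting transcription factors without Tbx20 was chosen after seeing the data. The other planned settings stayed within 1.5 times the main counts.

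Of 2560 values for 160 named genes, 26 moved and 2 changed sign. The log2 ratio of medians became 0.40 for Cntnap4 without the Tbx20 requirement and 0.051 for Alcam without block 4. The cause was not tested. With 22 and 35 nuclei, exact intervals near 50% are wider than the limit of 25 points, running from 28.2 to 71.8 for 11 of 22 and from 34.0 to 68.6 for 18 of 35. No paired analysis was possible because all nuclei belong to 1 sample.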
